A study of Arabidopsis thaliana with 6 samples.

Results

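UDP-glycosyltransferase (UGT) genes were taken as all protein-coding genes whose symbol in the TAIR10.1 annotation has the form UGT, number, letter, number, such as UGT85A5. The pattern matched 58 of the 27444 protein-coding nuclear genes of Arabidopsis thaliana. Another 74 genes annotated as UDP-glycosyltransferases carry other symbols or none and were left out, so the 58 are not the whole superfamily. A tandem array was defined as members on 1 chromosome with at most 1 other protein-coding gene between neighbours. By that definition 37 members lay in 15 arrays (1 array of 5, 4 of 3 and 10 of 2) and 21 were single. Only members counted as neighbours, so a single member can stand beside a UDP-glycosyltransferase gene with another symbol. With any such gene counted, a definition added after seeing the data, 42 members lay in arrays and 16 were single.

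The study asked whether BRAHMA (BRM), a SWI/SNF-type chromatin remodelling ATPase, affects where trimethylated lysine 27 of histone H3 (H3K27me3) is deposited. Whole 14-day-old seedlings were used, either wild type (accession Col, called wt) or brm, the null T-DNA insertion allele brm-1 in Col. The study's methods describe growth in long days, on agar for the ChIP seedlings. They name more than 1 growth temperature and more than 1 sequencer model without assigning them to libraries. Whether the genotypes shared these is therefore not known. Each genotype had 2 H3K27me3 ChIP-seq libraries, which the study's methods describe as independent biological samples, and 1 input library of sonicated chromatin. In whole seedlings a change in the share of cells that carry a mark and a change of the mark within cells cannot be told apart.

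UGTs join a sugar from a UDP-sugar to a small molecule and so change its solubility, activity and storage. In Arabidopsis their acceptors include flavonols, monolignols, hydroxycinnamates and the hormones auxin, cytokinin, abscisic acid and salicylic acid. H3K27me3 is laid down by Polycomb repressive complex 2 over silent genes, and neighbouring copies of a duplicated gene can carry it or lack it.

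The deposited reads numbered 8563827 and 9051298 in the wt H3K27me3 libraries, 9593473 and 8408612 in the brm H3K27me3 libraries, and 6342835 (wt) and 5676681 (brm) in the inputs. Distinct positions made up 23.4% to 38.2% of the H3K27me3 reads, with brm replicate 2 the highest, and 68.9% and 80.03% of the input reads. The mutated gene, BRM itself, gave 14.5 and 15.4 reads per 1000000 nuclear reads (RPM) in wt and 18.9 and 20.5 RPM in brm, far below its inputs of 97.1 and 74.2 RPM, and these reads do not test the mutation. AG, FLC, AP3 and FT, known carriers of the mark, stood at log2 ratios to input of 1.96 to 3.57 over the 4 libraries, and the actively transcribed ACT7 and TUB2 at -3.80 to -2.37.

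The UGT85A array is the largest, with 5 genes on the minus strand of chromosome 1 (TAIR10.1, chr1:7890259-7906969, 16.7 kb). Its copies resemble each other, which matters because the authors kept only reads that mapped to 1 place. The stretch that encodes the conserved UDP-sugar binding box of plant UGTs is shown for all 5 copies, as the 132 coding bases of 1 exon, 5′ to 3′ on the coding strand, with the 18 bases of the box core in capitals.
UGT85A7: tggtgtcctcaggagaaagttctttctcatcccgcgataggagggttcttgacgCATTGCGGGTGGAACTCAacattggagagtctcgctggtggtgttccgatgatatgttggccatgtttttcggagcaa
UGT85A2: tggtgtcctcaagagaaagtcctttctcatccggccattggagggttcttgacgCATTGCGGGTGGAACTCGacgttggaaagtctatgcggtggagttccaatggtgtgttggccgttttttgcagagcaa
UGT85A5: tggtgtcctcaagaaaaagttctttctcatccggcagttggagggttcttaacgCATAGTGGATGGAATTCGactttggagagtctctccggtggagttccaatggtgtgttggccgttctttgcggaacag
UGT85A3: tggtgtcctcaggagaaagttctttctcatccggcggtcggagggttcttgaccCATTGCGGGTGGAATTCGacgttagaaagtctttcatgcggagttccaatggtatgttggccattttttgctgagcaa
UGT85A1: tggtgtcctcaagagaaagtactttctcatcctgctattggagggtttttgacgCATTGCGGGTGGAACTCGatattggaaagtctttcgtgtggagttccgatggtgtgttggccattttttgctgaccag

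The lines run in genome order, and UGT85A2 and UGT85A5, described further on, follow UGT85A7. In the capitals UGT85A5 differed from UGT85A2 at 4 of 18 bases, written with positions counted from the first capital as T4A, C6T, G9A and C15T. UGT85A1 did not differ there, and UGT85A7 (G18A) and UGT85A3 (C15T) each differed at 1 base. Over the 132 bases the 10 pairs of the array were 81.1% to 88.6% identical, and the longest run without a mismatch was 32 bases, shorter than a read of 37 bases. Over the whole gene spans at least 99.85% of 37-base windows were unique in the genome for each gene of the array, with the lowest value in UGT85A3. The lowest value among the 58 members was 86.6%, in UGT73C6, so reads were missing there.

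A gene was called marked when regions found in both replicates of a genotype covered at least 50% of its span. Of the 58 members 18 (31.0%) were marked in wt and 20 (34.5%) in brm, 16 of them in both genotypes. The same rule marked 21.9% of protein-coding genes in wt and 23.2% in brm, and 48.4% and 49.3% of the 219 cytochrome P450 genes, another large family of metabolic enzymes. The mark was not spread evenly over the family. Clade E, which holds UGT71, UGT72 and UGT88, had 9 of 15 members marked in wt. Clade D (UGT73) had 2 of 10, clade H (UGT76) 1 of 8 and clade L (UGT74, UGT75 and UGT84) 3 of 13. Clade G, the UGT85 genes, went from 2 of 6 in wt to 5 of 6 in brm.

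Against input, edgeR's quasi-likelihood test called 15 members enriched and 21 depleted in wt, and 17 enriched and 22 depleted in brm. Among all protein-coding genes 20.1% were enriched and 52.1% depleted in wt, and 19.9% and 54.5% in brm. These calls depend on scaling. Trimmed-mean (TMM) scaling moved all genes up by a median of 1.92 (wt) and 2.05 (brm) on the log2 scale. With it 29 members were enriched in each genotype and 0 (wt) or 1 (brm) depleted. The share of all genes enriched under TMM scaling is not given, so these counts do not set the family against other genes. The log2 ratios that follow are set against total reads, on RPM plus 1, so that most protein-coding genes lie below 0 (median -1.91 in wt and -2.07 in brm).

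The highest ratios belonged to UGT71B8, UGT72E3, UGT71B5, UGT72E2, UGT78D3 and UGT85A7. UGT71B8 gave 162 and 184 RPM in wt and 193 and 169 RPM in brm over inputs of 14.7 and 18.0 RPM, a wt log2 ratio of 3.47 ± 0.13 (SD, n = 2), and the genotypes overlapped. UGT71B5 gave 135 and 204 RPM in wt and 144 and 147 RPM in brm. At the other end UGT71C5, an abscisic acid glucosyltransferase, UGT76C2, a cytokinin N-glucosyltransferase, UGT89B1 and UGT73B3 stood at mean wt log2 ratios of -3.19 to -3.12, with fewer than 4 RPM in each wt library. These means rest on few reads and give no firm order. UGT89B1, with 34 and 5 reads in wt, had log2 ratios of -2.30 and -3.98. UGT71C5 and UGT71B5 belong to the same family and clade and lay at opposite ends of the range.

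**Figure D1:**
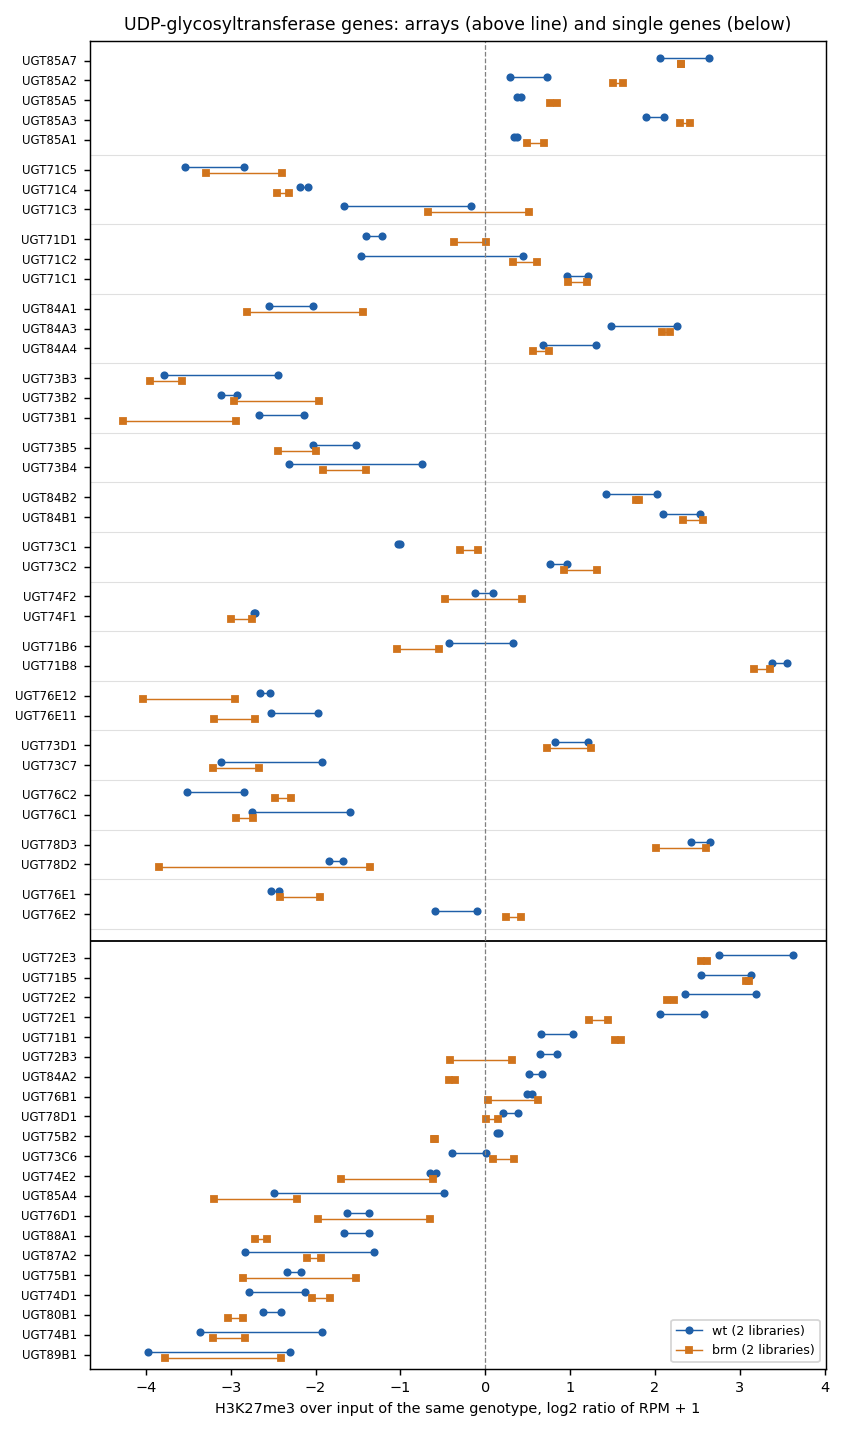
Log2 ratio of H3K27me3 to input (RPM plus 1) of the 58 members; each line joins the 2 libraries of a genotype (wt blue circles, brm orange squares), with arrays in genome order within each above the black line and the 21 single members below it. In 6 of the 15 arrays some members but not all are marked in wt, and UGT85A2 and UGT85A5 have both brm libraries to the right of both wt libraries.

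By substrate, the monolignol glucosyltransferases were the group in which each member was marked in both genotypes. UGT72E1, UGT72E2 and UGT72E3 add glucose to coniferyl aldehyde and monolignols, the precursors of lignin. UGT72E2 gave 107 and 193 RPM in wt and 101 and 107 RPM in brm, UGT72E3 106 and 196 RPM in wt and 144 and 138 RPM in brm. The wt replicates of both differed from each other by more than the brm replicates did. UGT72E1 gave 63.2 and 90.7 RPM in wt and 53.2 and 62.3 RPM in brm, over inputs of 14.3 and 22.2 RPM. Of the 14 other monolignol pathway enzymes listed, 2 were marked in each genotype.

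Flavonol glycosylation was split. UGT78D3, the flavonol 3-O-arabinosyltransferase, was marked (84.8% of the span in wt, 96.1% in brm). UGT78D2, the flavonoid 3-O-glucosyltransferase that stands 2894 bp from it, had no region in either genotype. UGT78D3 gave 102 and 119 RPM in wt and 63.9 and 96.7 RPM in brm, and UGT78D2 3.15 and 3.65 RPM in wt and 7.30 and 0.476 RPM in brm. The difference of 4.30 in wt log2 ratio was the largest between any adjacent pair in an array. The single genes UGT78D1, the flavonol 3-O-rhamnosyltransferase, and UGT73C6, which adds glucose at position 7 of flavonols, were not marked. Of 8 other flavonoid enzymes, wt had 3 marked and brm 4.

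Among hormone-related members, the auxin glucosyltransferase UGT84B1 was covered over 100% of its span in both genotypes, with 66.8 and 90.2 RPM in wt and 69.6 and 81.9 RPM in brm. UGT74D1 and UGT74E2, which also act on auxins, had no region in either genotype. The cytokinin N-glucosyltransferases UGT76C1 and UGT76C2 had none, and UGT85A1, which glucosylates trans-zeatin, was covered over 24.2% in wt and 57.7% in brm. Of 24 listed cytokinin metabolism genes, wt had 10 marked and brm 12. The salicylic acid glucosyltransferases UGT74F1 and UGT74F2 had no region. UGT76B1, which acts on isoleucic acid and salicylic acid, passed the 50% rule in wt (77.4%) and had no region in brm, while its reads overlapped, at 24.5 and 25.6 RPM in wt and 26.1 and 17.0 RPM in brm. UGT71B6, an abscisic acid glucosyltransferase, sat just inside the threshold in wt (50.5%) and lay outside it in brm (7.36%), with 12.1 and 21.2 RPM in wt and 8.34 and 12.1 RPM in brm. The nearest member outside the threshold in wt was UGT85A5 (46.9%). UGT74B1, the S-glucosyltransferase of glucosinolate synthesis, was unmarked, whereas 6 of 11 other core glucosinolate enzymes were marked in both genotypes. The sterol glucosyltransferase UGT80B1 and UGT87A2, reported to affect flowering time, had no region either.

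Along the 16 members marked in both genotypes, the reads were densest in parts 2 and 3 of 10 equal parts of the span, counted from the 5′ end, and sparsest in part 10. In wt replicate 1 the mean density went from 33.6 RPM per kb in part 1 to 68.0 in part 2 and 10.5 in part 10. In brm replicate 1 it went from 32.3 to 56.9 and 18.1. The first 5 parts held 58.8% and 55.9% of the reads in wt and 53.8% and 54.2% in brm, against 48.2% and 49.7% in the inputs.

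**Figure D2:**
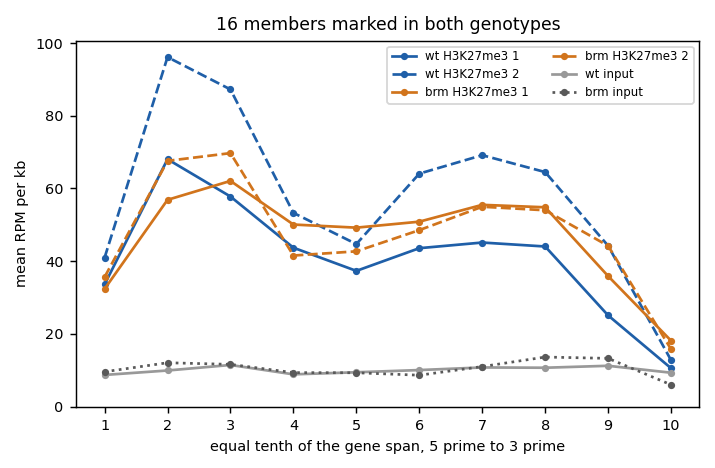
Mean read density (RPM per kb) in 10 equal parts of the span, 5′ to 3′, over the 16 members marked in both genotypes, 1 line per library (wt blue, brm orange, inputs grey; dashed lines are replicate 2). The H3K27me3 lines peak in part 2 or part 3 and are lowest in part 10, at 10.5 and 12.7 RPM per kb in wt (input 9.30) and 18.1 and 15.8 in brm (input 5.99).

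To relate upstream sequence to the mark, the 250 bases before each annotated start were searched on both strands for the telobox (AAACCCTA) and for GAGAGA, 2 short motifs linked to Polycomb recruitment in plants. No member had the telobox, which 4.49% of all protein-coding windows had. GAGAGA was found in 5 of the 22 members marked in either genotype (22.7%), in 6 of the 36 others (16.7%) and in 20.6% of all protein-coding windows. The windows of UGT71B8, a marked member with the motif, and of UGT85A3, a marked member without it, are shown 5′ to 3′ on the gene's strand with the motif in capitals (TCTCTC is GAGAGA on the other strand). They lie upstream of the minus-strand genes at chr3:7681798-7682047 and chr1:7902428-7902677 (TAIR10.1), outside annotated genes.
UGT71B8: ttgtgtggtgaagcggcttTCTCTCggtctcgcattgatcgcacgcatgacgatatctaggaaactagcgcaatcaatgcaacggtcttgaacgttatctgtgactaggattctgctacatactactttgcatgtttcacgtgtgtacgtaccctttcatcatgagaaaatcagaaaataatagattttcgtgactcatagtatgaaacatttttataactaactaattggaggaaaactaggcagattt
UGT85A3: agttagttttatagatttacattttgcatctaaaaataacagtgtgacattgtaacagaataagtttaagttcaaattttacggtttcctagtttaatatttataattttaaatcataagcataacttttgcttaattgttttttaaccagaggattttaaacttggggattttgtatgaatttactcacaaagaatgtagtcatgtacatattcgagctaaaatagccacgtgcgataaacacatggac

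Arrays and single genes were then compared. In wt 11 of 37 array members (29.7%) and 7 of 21 single members (33.3%) were marked, and in brm 14 of 37 (37.8%) and 6 of 21 (28.6%). The median log2 ratio of the array members was -0.999 ± 0.58 (SD of 2 library medians) in wt and -0.33 ± 0.05 in brm. That of the single members was -0.19 ± 0.28 in wt and -0.60 ± 0.01 in brm. Both medians come from the same libraries, so they are best set side by side within each library. Array members lay below single members in both wt libraries (-1.41 against -0.39, and -0.59 against 0.004). In both brm libraries they lay above (-0.30 against -0.60, and -0.37 against -0.61). The order of the medians thus turned from one genotype to the other, and the wt libraries also differed from each other. With any UDP-glycosyltransferase gene as neighbour, 13 of 42 array members and 5 of 16 single members were marked in wt. In brm 16 of 42 and 4 of 16 were. The medians were then -0.59 (arrays) and -0.39 (single) in wt, and -0.19 and -0.96 in brm. Genes are not replicates of a condition, so these are descriptions.

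Within arrays, neighbouring members formed 22 pairs, some with 1 other gene between them. Of these pairs 9 in wt and 6 in brm had 1 member on each side of the 50% rule. That does not by itself place a boundary of the mark between them. In wt 7 of the 15 arrays had no marked member, 6 had some and 2 had all members marked. No region touched the arrays of UGT71C5, UGT73B3, UGT73B5, UGT74F2, UGT76E12, UGT76C2 and UGT76E1 in either genotype, whereas UGT84B2 and UGT84B1 were covered over 100% in both. UGT73B5 and UGT73B4 overlap, as do UGT71C4 and UGT71C3, and ChIP-seq reads cannot be assigned to 1 of 2 overlapping genes.

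The UGT84A array on chromosome 4 holds UGT84A1, UGT84A3 and UGT84A4, which make glucose esters of hydroxycinnamates. UGT84A1 gave 1.87 and 3.09 RPM in wt and 6.78 and 2.02 RPM in brm. UGT84A3, 2139 bp away, gave 46.8 and 80.5 RPM in wt and 89.1 and 94.9 RPM in brm, over inputs of 16.1 and 20.3 RPM. Its brm values lay above both wt values. UGT84A4 was covered over 34.9% in wt and 100% in brm, although its reads overlapped (24.1 and 37.7 RPM against 29.0 and 33.2 RPM). Between UGT84A1 and UGT84A3 the density was 7.21 and 5.63 RPM per kb in wt and 16.7 and 16.2 in brm, over inputs of 5.82 and 6.84. The unlinked UGT84A2, the sinapate glucosyltransferase, gave 22.7 and 25.4 RPM in wt and 17.6 and 18.4 RPM in brm.

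**Figure D3:**
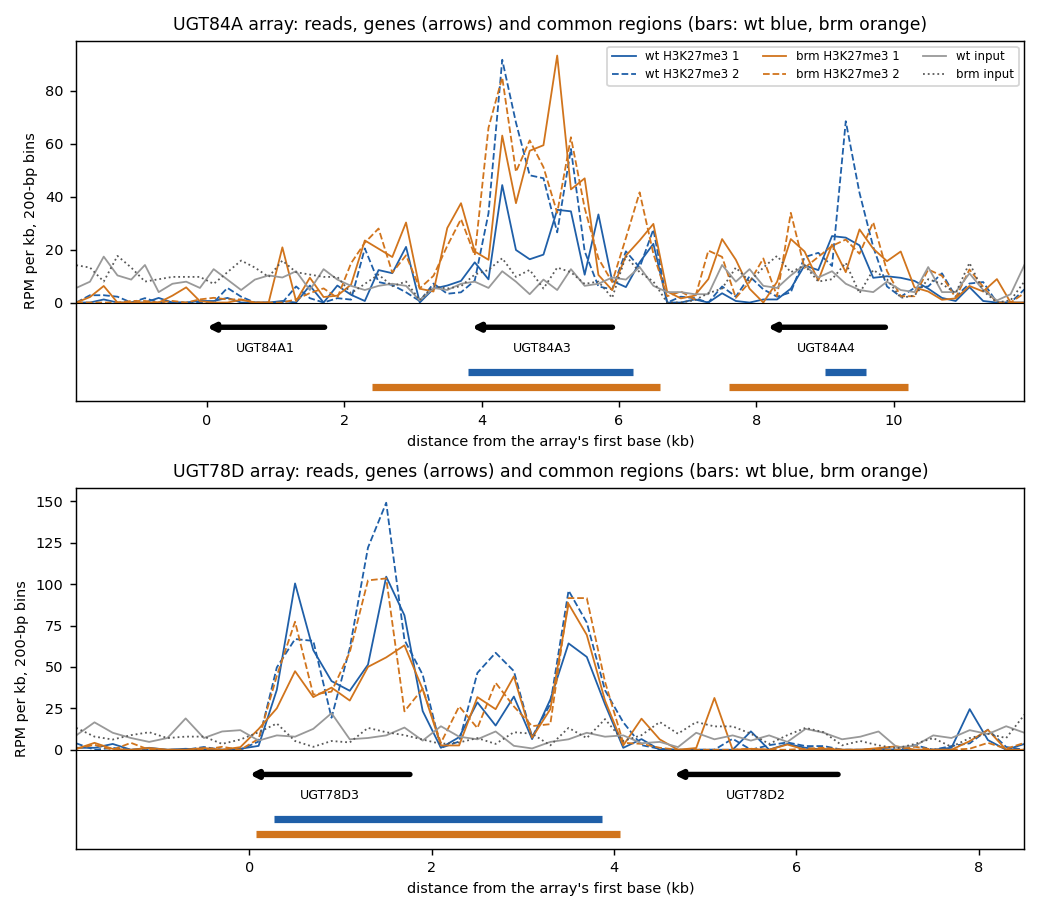
Read density (RPM per kb, 200-bp bins) along the UGT84A and UGT78D arrays against distance from the array's first base, 1 line per library (wt blue, brm orange, inputs grey); arrows are genes and bars are regions found in both replicates. The density over UGT84A1 and UGT78D2 stays at or below the inputs in most bins while UGT84A3 and UGT78D3, the nearest members of the same arrays, stand above them.

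In the comparison of brm with wt, 57 of the 58 members had enough reads to be tested (UGT73B3 did not), and edgeR called 0 of them at an adjusted p of 0.05. Over all 30906 genes tested it called 0.0777% higher and 0.0971% lower in brm. At an unadjusted p below 0.05, 7 members were higher and 3 lower in brm, or 10 of 57, beside 3.21% and 4.53% of all genes tested. DESeq2 called 1 member, UGT85A5, among 0.416% of genes higher in brm. With 1 read per position and strand edgeR called UGT85A5 (log2 fold change 0.92, adjusted p = 0.0111) and UGT85A2 (0.68, adjusted p = 0.0485), where 0.557% of the genes tested were called higher. The brm values of 12 members lay above both wt values and those of 11 below both, where 16.7% and 21.1% of the protein-coding genes tested did so. Array members made up 11 of those above and 5 of those below. With any UDP-glycosyltransferase gene as neighbour, array members made up 12 and 5, and single members 0 and 6.

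The UGT85A genes made up 4 of those 12. Members of this family glucosylate cytokinins and other small molecules. UGT85A5 gave 26.0 and 25.3 RPM in wt and 51.7 and 49.0 RPM in brm, a log2 fold change of 0.97 (SE 0.25, edgeR adjusted p = 0.179). Its inputs were 19.2 (wt) and 28.4 RPM (brm), and its log2 ratio to input was 0.40 ± 0.03 in wt and 0.81 ± 0.05 in brm (SD, n = 2). UGT85A2 gave 43.3 and 59.1 RPM in wt and 84.5 and 92.5 RPM in brm, a log2 fold change of 0.79 (SE 0.21, edgeR adjusted p = 0.211). Its inputs were 35.2 (wt) and 29.2 RPM (brm). UGT85A3 gave 83.8 and 96.8 RPM in wt and 122 and 132 RPM in brm (0.49, SE 0.17, edgeR adjusted p = 0.492). The brm libraries of all of these lay above the wt libraries. UGT85A1 gave 40.2 and 41.2 RPM in wt and 52.2 and 45.4 RPM in brm. UGT85A7, the copy with the highest wt ratio, overlapped, at 70.1 and 105 RPM against 88.7 and 88.8 RPM.

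Without wt replicate 2 edgeR called 6 members higher in brm (UGT71C3, UGT85A2, UGT85A5, UGT85A3, UGT71C2 and UGT84A3), where 0.579% of genes were called higher. Without wt replicate 1 it called UGT85A5 higher and UGT85A4, UGT72E1, UGT78D3 and UGT72E2 lower, where 0.825% of genes were called higher and 1.93% lower. Without brm replicate 1 or brm replicate 2 it called none. In each of these fits 1 genotype kept 1 library, so the spread came from the other genotype's pair and the lone library was assumed to vary like it. UGT85A4, at 2.57 and 13.4 RPM in wt, was named after its values were seen. With the input as an offset UGT85A5 had a log2 fold change of 0.43 and was not called, whereas UGT85A2 was called at 1.046 (adjusted p = 0.0108) and UGT72E1 at -1.01 (adjusted p = 0.0179), among 0.511% of genes higher and 1.27% lower. In the test of the difference in enrichment between genotypes, edgeR called 0 of the 58 members (2 at an unadjusted p below 0.05), beside 0.00546% of all genes.

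Along the UGT85A array the regions of both replicates covered 58.6% of the 16.7 kb in wt and 85.99% in brm. Over the whole genome, regions covered 16.5% in wt (6460 regions) and 18.6% in brm (6232 regions). Regions also lengthened where reads did not rise, as at UGT72E2, from 2200 bp in wt to 4200 bp in brm. Others shortened, as at UGT72B3, from 5000 to 3200 bp. In the UGT85A array the regions formed 4 pieces in wt and 3 in brm, where gaps remained within UGT85A2 and UGT85A1. In brm 1 of the 3, of 7600 bp (chr1:7897001-7904600), ran from the 5′ part of UGT85A2 through UGT85A5 and UGT85A3 into UGT85A1. The marked copies went from 2 (UGT85A7 and UGT85A3) to all 5. Coverage went from 40.4% to 72.9% in UGT85A2 and from 46.9% to 100% in UGT85A5. With the H3K27me3 libraries thinned to 2115598 and the inputs to 4369915 distinct reads, a check added after seeing the data, the array was covered over 58.6% in wt and 87.2% in brm. The 5′ part of UGT85A2, cut at the middle of its span, gave 9.22 and 17.7 RPM in wt and 28.9 and 44.4 RPM in brm, with inputs of 17.0 and 12.2. Its 3′ part gave 34.1 and 41.4 RPM in wt and 55.7 and 48.2 RPM in brm.

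The density over the whole array was 21.3 and 24.7 RPM per kb in wt and 31.3 and 32.9 in brm, with inputs of 9.59 and 9.78. With the 15 array spans added to the fit over all genes, also after seeing the data, the array had a log2 fold change of 0.48 (SE 0.13, edgeR adjusted p = 0.256). With 1 read per position and strand it was 0.47 (SE 0.10, edgeR adjusted p = 0.0345). With all reads the 15 spans ran from -0.48 (the UGT76E12 array, SE 0.67) to 0.81 (the UGT76E1 array, SE 0.32). The UGT84A array stood at 0.61 (SE 0.18, edgeR adjusted p = 0.351). With 1 read per position and strand the UGT84A array stood at 0.67 (SE 0.13, edgeR adjusted p = 0.0166). A higher value in brm was thus not particular to the UGT85A array. Without wt replicate 2 the UGT84A array stood at 0.95 and the UGT85A array at 0.59. The adjusted p of the array ranged up to 0.9998 when another library was left out, under the same assumption about the lone library.

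**Figure D4:**
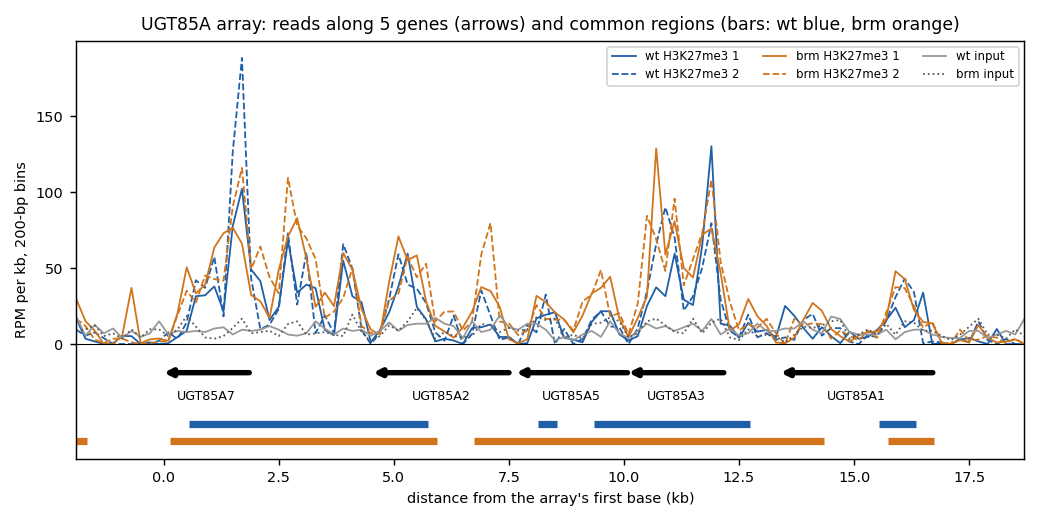
Read density (RPM per kb, 200-bp bins) along the UGT85A array against distance from its first base, 1 line per library (wt blue, brm orange, inputs grey); arrows are the 5 genes and bars the regions found in both replicates. The wt bars cover 58.6% and the brm bars 85.99% of the array, and over UGT85A2 and UGT85A5 the gaps between bars are narrower in brm.

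Outside this array the marked members with brm values above wt were UGT84A3 (log2 fold change 0.53, SE 0.22, edgeR adjusted p = 0.574) and UGT71B1, at 34.9 and 45.7 RPM in wt and 58.5 and 55.8 RPM in brm (0.50, SE 0.22, edgeR adjusted p = 0.602). UGT71B1 was single among the members, but not when any UDP-glycosyltransferase gene counted as neighbour. UGT71D1, unmarked in both genotypes, gave 5.37 and 6.30 RPM in wt and 19.0 and 14.4 RPM in brm, over inputs of 15.9 and 18.8 RPM. Its log2 fold change was 1.51 (SE 0.46, edgeR adjusted p = 0.366), and with 500 bp added on each side it was called at 1.61 (adjusted p = 0.0252), among 0.221% of genes higher in brm. It stands next to UGT71C2, which gave 6.54 and 27.3 RPM in wt and 34.1 and 27.9 RPM in brm. The 2 wt libraries of UGT71C2 differed by more than 4-fold.

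The marked members with brm values below wt were UGT71B6, UGT72E2, UGT78D3, UGT72E1 and UGT71C1, at log2 fold changes of -0.71 to -0.33 with edgeR adjusted p from 0.550 to 0.775. UGT72E2 and UGT72E1, the monolignol genes named earlier, stood at -0.53 (SE 0.21) and -0.41 (SE 0.21). None of the 8 flavonoid, 24 cytokinin, 10 tested glucosinolate or 14 monolignol genes of the companion lists was called by edgeR in either direction. At an unadjusted p below 0.05, 1, 3, 0 and 1 of them passed.

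**Figure D5:**
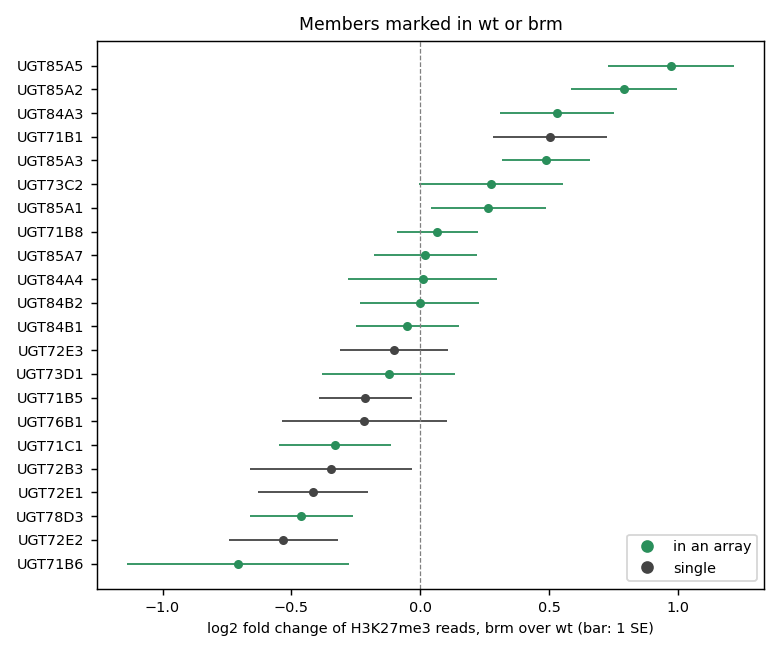
Fitted log2 fold change of H3K27me3 reads, brm over wt, for the 22 members marked in either genotype; bars are 1 SE and colours tell array members (green) from single members (grey). UGT85A5 at 0.97 and UGT85A2 at 0.79 stand highest and UGT71B6 at -0.71 lowest.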

How the data were processed

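The authors sequenced H3K27me3 ChIP and input DNA, mapped reads to TAIR10 with Bowtie 0.12.7, keeping perfect, unique matches, and called regions with SICER 1.1. The deposited files list 1 read of 37 bp per line, so values are raw counts of deposited reads, duplicates included. Read positions fit the chromosome lengths of TAIR10.1, whose gene spans were used. The 5′ ends were moved 75 bp, and RPM is reads per 1000000 nuclear reads. Log2 ratios used a pseudocount of 1 RPM.

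Regions were rebuilt in SICER's manner (200-bp windows, 600-bp gap, 1 read per position and strand, Poisson test against input, Benjamini-Hochberg 0.01), and bases found in both replicates kept. Genotypes were compared with edgeR 4.0.16 (R 4.3.3; quasi-likelihood, total reads as offset, filterByExpr, robust, Benjamini-Hochberg over all genes) on 4 libraries. Enrichment used all 6, with unreplicated inputs assumed to vary like the others. DESeq2 1.42.0 was an alternative. Scripts were tested on simulated data.

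Named members were those called in any fit with all libraries, the 6 highest and 4 lowest wt ratios, the 6 largest differences each way among marked members whose genotypes do not overlap, the 3 largest arrays (4 arrays of 3 tied, and the first 2 in genome order were taken) and members with a known substrate. Companion lists left out 3 genes that share a symbol with a listed enzyme (LOG2 or CCR1) but encode other proteins. Members and lists were chosen with earlier results of these data known. Promoter windows and coding bases are from the RefSeq TAIR10.1 genome.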

Additional observations from a re-analysis of the deposited data

How the results depend on the processing

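The number of members called between genotypes moved with most settings. Beside 0 in each direction, the count higher in brm was 1 with DESeq2, 2 with no filter on low counts, 2 with 1 read per position and strand, 2 with 500-bp flanks, 1 with the input offset and 2 with the replicate block, and the count lower was 1 with the input offset. Leaving out 1 library gave 0 to 7 higher and 0 to 5 lower, including fits with 1 read per position and strand that were chosen after seeing the data. Over all genes the counts were 24 higher and 30 lower, against 73 and 62 (DESeq2), 79 and 105 (no filter), 110 and 101 (1 read per position), 78 and 56 (flanks), 158 and 394 (input offset), 86 and 94 (replicate block) and, without 1 library, 8 to 304 and 10 to 931. Deviations of same-numbered libraries correlated at r = 0.03 over 30906 genes, and replicate number was not a term of the main fit. With 2 replicates per genotype this cannot show whether same-numbered libraries were handled together.

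With TMM scaling 29 members were enriched in wt and 29 in brm, and 0 and 1 were depleted, again with no share of all genes beside them. Leaving out brm replicate 2 gave 13 depleted in brm, against 22 with all libraries. That fit kept 1 brm H3K27me3 library, and its share of all genes is not given. The count of 13 therefore does not set the family against other genes. Marked members in wt numbered 11 when 80% of the span had to be covered. Thinned libraries gave 17 marked members in wt and 20 in brm, beside 6032 and 6113 of the 27444 protein-coding genes. Without thinning 5998 (wt) and 6359 (brm) protein-coding genes were marked, so over all genes the genotypes differed less at equal depth.

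The median log2 ratio of array members in brm was -0.085 with flanks, 0.070 when no other gene was allowed between array members, -0.040 for members with at least 95% unique windows and, added after seeing the data, -0.19 with any UDP-glycosyltransferase gene as neighbour. That of single members in wt was -0.69 with 1 read per position, -0.54 with flanks and -0.53 with up to 5 other genes between array members. In brm it was -0.55, -0.63 and -1.16 under the same 3 settings, -0.64 with a pseudocount of 0.1 RPM, -0.59 with no other gene between, -0.88 for unique members and -0.96 with any such neighbour.

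The fold change of the UGT85A array span was 0.47 with 1 read per position and 0.38 to 0.59 without 1 library. The sign turned for UGT85A7 with the input offset (-0.063) and without 1 library (-0.24 to 0.34), and without 1 library for UGT71C3 (-0.068 to 1.73). For UGT71C1 (-0.46 to 0.085), UGT72E2 (-0.89 to 0.096) and UGT78D3 (-0.79 to 0.037) it turned only in fits without 1 library that also used 1 read per position and strand. The cause of these moves was not tested. The 2 libraries per genotype, the unreplicated inputs and the small share of distinct reads limit what the counts can show.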
